A study of Komagataella phaffii with 18 samples.

Results

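Among the protein-coding features of the yeast Komagataella phaffii, 17 had levels that differed widely between libraries from the same rich medium, YPD. Their group means stayed within narrow limits after a shift to acetate medium. The 17 features were chosen by a rule on measured levels from 5341 features in all. A feature had to lie on chromosomes 1 to 4 with a serial number of at least 75 in its ID and a length over 300, which 4831 features met, and its mean over the 9 YPD libraries had to reach 100 CPM (counts per 1000000 counts of a library), which left 1671. The highest YPD library then had to be at least 8 times the lowest, on a ratio with 5 CPM added to both values, which 66 features met. Of these 66, 34 were left out because the acetate mean was not between 0.2 and 5 times the YPD mean in each strain, and 17 because the 3 acetate groups were more than 2-fold apart, with 6 failing both limits. The last limit, a 2-fold range over the 6 group means, took the remaining 21 to 17. The width of the spread in YPD and the narrowness of the acetate group means are therefore how the members were found and not results.

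The study sequenced polyadenylated RNA of strain CBS2612 in 18 libraries, 3 in each of 6 groups. The groups are the heterothallic a-type strain dic1-2Δ(a), the heterothallic α-type strain dic1-2Δ(α) and the wild type, each after 24 h in acetate medium and each in YPD during exponential growth. Both heterothallic strains carry the dic1-2Δ change, which the wild type lacks. The cultures sampled in YPD were the ones then moved to acetate, so the medium cannot be told apart from time or growth stage. Nothing states whether the 3 libraries of a group came from separate cultures, so p-values speak only to the spread of these libraries, part of which may be technical. No ID is paired with the dic1-2 locus, so the genotypes were not checked here. These are bulk libraries, in which fewer cells with a transcript and less of it per cell cannot be told apart.

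As background, K. phaffii is a methylotrophic yeast, able to grow on methanol, and YPD supplies glucose, peptone and yeast extract. Exponentially growing yeast in such a medium uses up glucose and other nutrients as the culture gets denser, and transcripts for nutrient uptake, carbon use and stress are known in yeasts to change with that progress. Acetate medium is used to bring yeasts of this genus to mating. The IDs of the 17 members are not paired with gene names in the files, none of the 5341 IDs matched the reference gene table of strain GS115, and no role is given to any member here.

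Depth limits what can be read from these features. The 9 YPD libraries held 234044 to 309362 estimated counts and the 9 acetate libraries 637339 to 765524, so 1 count was worth 3.23 to 4.27 CPM in a YPD library. In its lowest YPD library a member had between 3 and 14 counts, and in its highest between 58 and 285. For the members every estimated count was whole to within 0.01 in all 18 libraries. The ratio of the highest to the lowest YPD library is given below with a 95% interval for counting error only (exact binomial). The YPD libraries that stood farthest from the others over the 1671 features were a-type replicate 1 and wild-type replicate 3, where the log2 deviations from the feature means had SDs of 0.68 and 0.61, against 0.41 to 0.51 in the other 7. These 2 libraries were also the lowest for 8 and 5 of the 17 members, and they were the lowest for 18.1% and 21.0% of the 1671 features. They were the highest for 1 and 3 members, and for 20.5% and 11.1% of the 1671 features. Wild-type replicate 2 was the highest for 7 members, and for 8.74% of the 1671 features. The rule used these YPD values, so nothing is read from these counts.

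**Figure D1:**
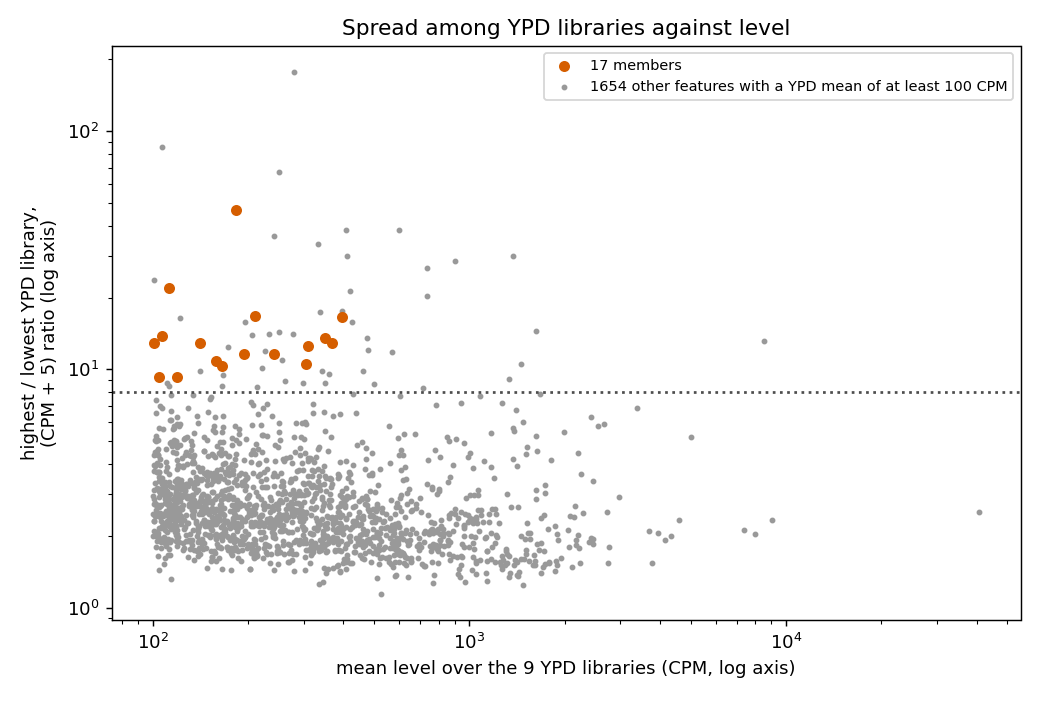
Each point is a feature with a YPD mean of at least 100 CPM, with the mean level over the 9 YPD libraries on the x axis (CPM, log axis) and the ratio of the highest to the lowest of these libraries on the y axis (CPM + 5, log axis); the dotted line is the limit of 8. The 17 members lie between ratios of 9.27 and 46.6 and at mean levels of 101 to 395 CPM, and the median ratio of the 1671 features was 2.46.

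The members had ratios of 9.27 to 46.6 with a median of 12.8, and 3.95% of the 1671 features reached 8. Just inside the limit were PP7435_Chr4-0791 at 9.27 and PP7435_Chr2-0145 at 9.32. Just outside it, among features that met every other limit, were PP7435_Chr3-0861 at 7.88, with 4469 CPM in wild-type replicate 2 and 562 CPM in a-type replicate 2, and PP7435_Chr1-1562 at 7.85. The membership depended on single libraries and on scaling. Without YPD a-type replicate 1, 11 features met the rule, 9 of them among the 17, and without YPD wild-type replicate 3, 12 did, 10 of them among the 17. Without both, 5 features met it, 4 of them among the 17. With library sizes adjusted by TMM, a scaling by the bulk of features, 30 features met the rule, including 14 of the 17, and with the deposited TPM values in place of CPM 24 did, including 6 of the 17.

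**Figure D2:**
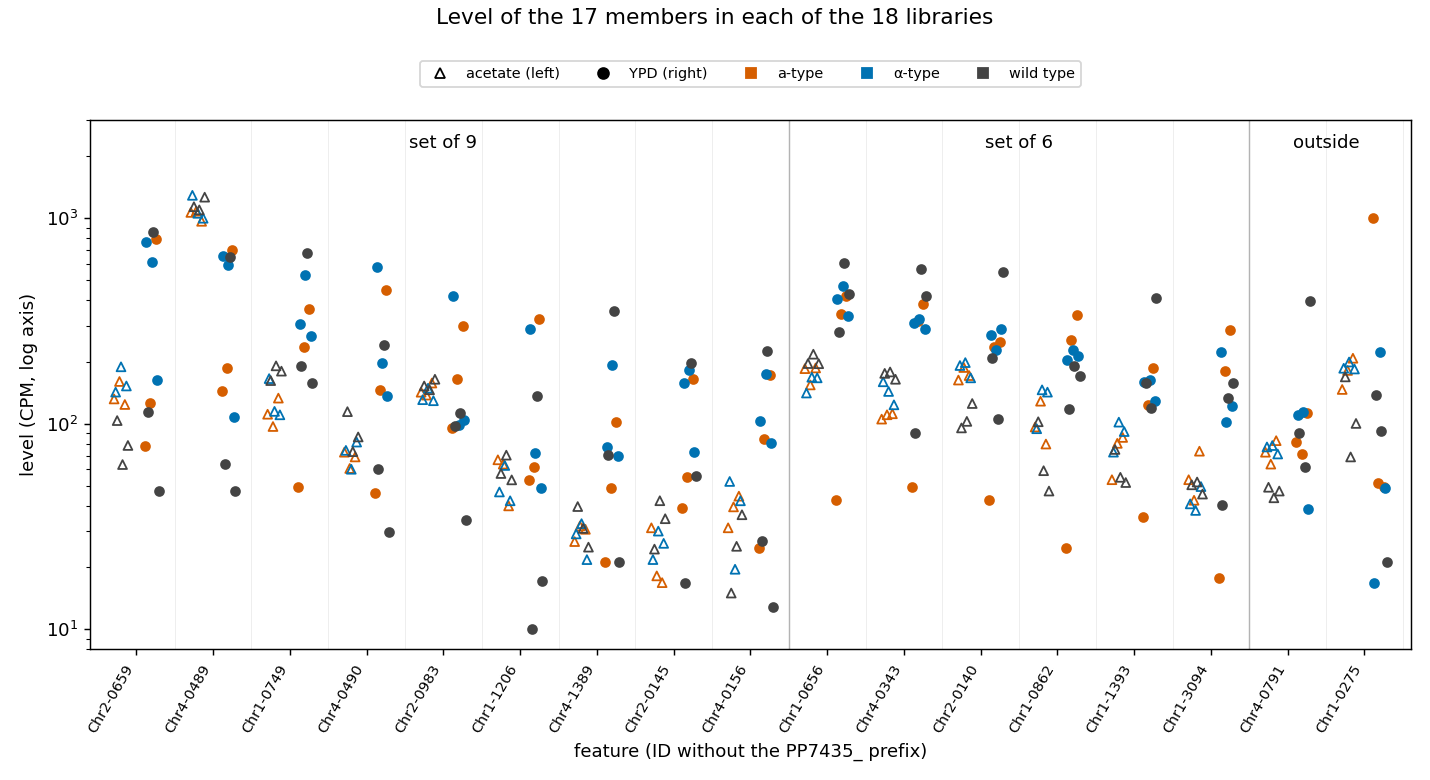
Level of each member in every library (CPM, log axis), with acetate libraries as open triangles left of the YPD libraries as filled circles and the strain shown by color; members are ordered by the sets that vary together. Acetate values form tight bundles, YPD values reach from 10.1 to 1007 CPM, and the 9 acetate libraries of PP7435_Chr4-0489 lie above all of its YPD libraries.

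The members fell into 2 sets that varied together over the 9 YPD libraries, of 9 and of 6 features, with 2 features outside both. The sets come from average-linkage clustering of the correlations of log2(CPM + 5), joined up to a distance of 0.5. Correlations here run over 9 libraries that share their depth and culture with every feature in them, so they describe these libraries and carry no test. The set of 9 holds PP7435_Chr2-0659, PP7435_Chr4-0489, PP7435_Chr1-0749, PP7435_Chr4-0490, PP7435_Chr2-0983, PP7435_Chr1-1206, PP7435_Chr4-1389, PP7435_Chr2-0145 and PP7435_Chr4-0156. The set of 6 holds PP7435_Chr1-0656, PP7435_Chr4-0343, PP7435_Chr2-0140, PP7435_Chr1-0862, PP7435_Chr1-1393 and PP7435_Chr1-3094. The sets were not cleanly apart. Members of the set of 9 correlated with the mean profile of the set of 6 from 0.160 (PP7435_Chr2-0983) to 0.742 (PP7435_Chr1-0749). PP7435_Chr1-0749 correlated at 0.889 with PP7435_Chr1-0656. Members of the set of 6 correlated with the mean profile of the set of 9 from -0.016 (PP7435_Chr2-0140) to 0.591 (PP7435_Chr1-3094). Over all 136 pairs of members the median correlation was 0.505 and 51.5% of pairs exceeded 0.5, beside a median of 0.0166 and 14.2% for all pairs of the 1671 features. The rule chose the members on these same YPD values, so the difference is not read as a result.

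The set of 9 was high in 4 YPD libraries and lower in the other 5, and the high libraries came from all 3 strains. Of the lower ones, a-type replicate 2 and α-type replicate 3 were near the members' own means, with median log2 deviations of -0.17 and -0.15. Its summed level was 551, 1109 and 3369 CPM in a-type replicates 1, 2 and 3, 3359, 2657 and 1054 CPM in the α-type replicates, and 652, 3451 and 423 CPM in the wild-type replicates. Each strain held at least 1 high and at least 1 lower library, so the strains overlapped. The median correlation over its 36 pairs was 0.821, with 31 pairs over 0.5 and the lowest pair at 0.305. The median stayed between 0.795 and 0.853 when each YPD library was left out in turn. Without wild-type replicate 3 the lowest pair was at -0.015. Both sets were formed on these correlations, so high values within a set are built in. Of the 1654 non-members with a YPD mean of at least 100 CPM, 95 (5.74%) had a correlation of at least 0.8 with the mean profile of this set, with a median highest-to-lowest ratio of 3.76, and 41 (2.48%) had one of -0.8 or lower.

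The member of this set with the highest mean level was PP7435_Chr2-0659, with a coding length of 1026. It had 77.8, 126 and 791 CPM in the YPD a-type libraries, 770, 612 and 164 CPM in α-type, and 114, 853 and 47.0 CPM in wild type. The highest library was 18.2 times the lowest by plain CPM (counting interval 9.98 to 36.8). The 4 high libraries lay between 612 and 853 CPM and the other 5 between 47.0 and 164 CPM, so no YPD library of this feature held a level in between.

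PP7435_Chr4-0489 and PP7435_Chr4-0490 carry consecutive serial numbers and were the only members that do. PP7435_Chr4-0489, with a coding length of 855, had 145, 187 and 699 CPM in the YPD a-type libraries, 659, 593 and 108 CPM in α-type, and 63.8, 652 and 47.0 CPM in wild type. It fell into the same 4 high and 5 low libraries as PP7435_Chr2-0659, with a correlation of 0.945 between them. PP7435_Chr4-0490, the longest member with a coding length of 3468, had 46.0, 145 and 449 CPM in YPD a-type, 582, 198 and 136 CPM in α-type, and 60.5, 242 and 29.9 CPM in wild type. Its correlation with PP7435_Chr4-0489 was 0.890. The 28 pairs of a member with the feature before or after it in the numbering had a median correlation of 0.0498, and 6 of them exceeded 0.5. For 516 consecutive pairs with both features among the 1671, the median was 0.0534 and 111 exceeded 0.5. The neighbors in the 28 pairs had no limit on level, with YPD means down to 6.51 CPM, so the 2 kinds of pairs are not alike.

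PP7435_Chr1-1206, with a coding length of 1119, had the largest ratio in this set, at 21.9. It had 53.0, 61.4 and 325 CPM in YPD a-type, 288, 72.2 and 48.9 CPM in α-type, and 10.1, 137 and 17.1 CPM in wild type. The lowest value rests on 3 counts, and the plain ratio of 32.3 had a counting interval of 10.7 to 159. PP7435_Chr2-0983, with a coding length of 2202, had 95.4, 165 and 300.2 CPM in YPD a-type, 418, 98.8 and 105 CPM in α-type, and 97.4, 113 and 34.2 CPM in wild type. Both features stood highest in a-type replicate 3 and α-type replicate 1, and neither was high in α-type replicate 2.

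Other members of the set were highest in wild-type replicate 2. PP7435_Chr4-1389, with a coding length of 1077, had 21.2, 48.5 and 102 CPM in YPD a-type, 77.0, 194 and 69.8 CPM in α-type, and 70.5, 355 and 21.4 CPM in wild type. PP7435_Chr1-0749, the shortest member with a coding length of 612, had 49.5, 236 and 364 CPM in YPD a-type, 304, 532 and 269 CPM in α-type, and 191, 676 and 158 CPM in wild type. Both had their 2 highest values in wild-type replicate 2 and α-type replicate 2, and their correlation was 0.898. PP7435_Chr4-0156, with a coding length of 2079 and a mean just over the limit of 100 CPM at 101 CPM, had 24.7, 84.0 and 173 CPM in YPD a-type, 104, 175 and 80.3 CPM in α-type, and 26.9, 225 and 12.8 CPM in wild type, where the lowest value is 3 counts. PP7435_Chr2-0145, with a coding length of 642, had 38.9, 55 and 166 CPM in YPD a-type, 157, 182 and 73.3 CPM in α-type, and 16.8, 198 and 55.6 CPM in wild type. These last features were high in the same 4 libraries as PP7435_Chr2-0659.

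A property of the libraries moved with this set. Over the 1671 features, the Spearman correlation of the deviation in a library with coding length was -0.194, 0.0951 and 0.202 in the YPD a-type replicates 1, 2 and 3, 0.0826, 0.133 and -0.0785 in α-type, and -0.156, 0.0717 and -0.131 in wild type. It was positive in the 4 libraries where the set of 9 was high and negative in 4 of the 5 where the set was lower, with a-type replicate 2 as the exception. Its part in the spread of the members was not tested.

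**Figure D3:**
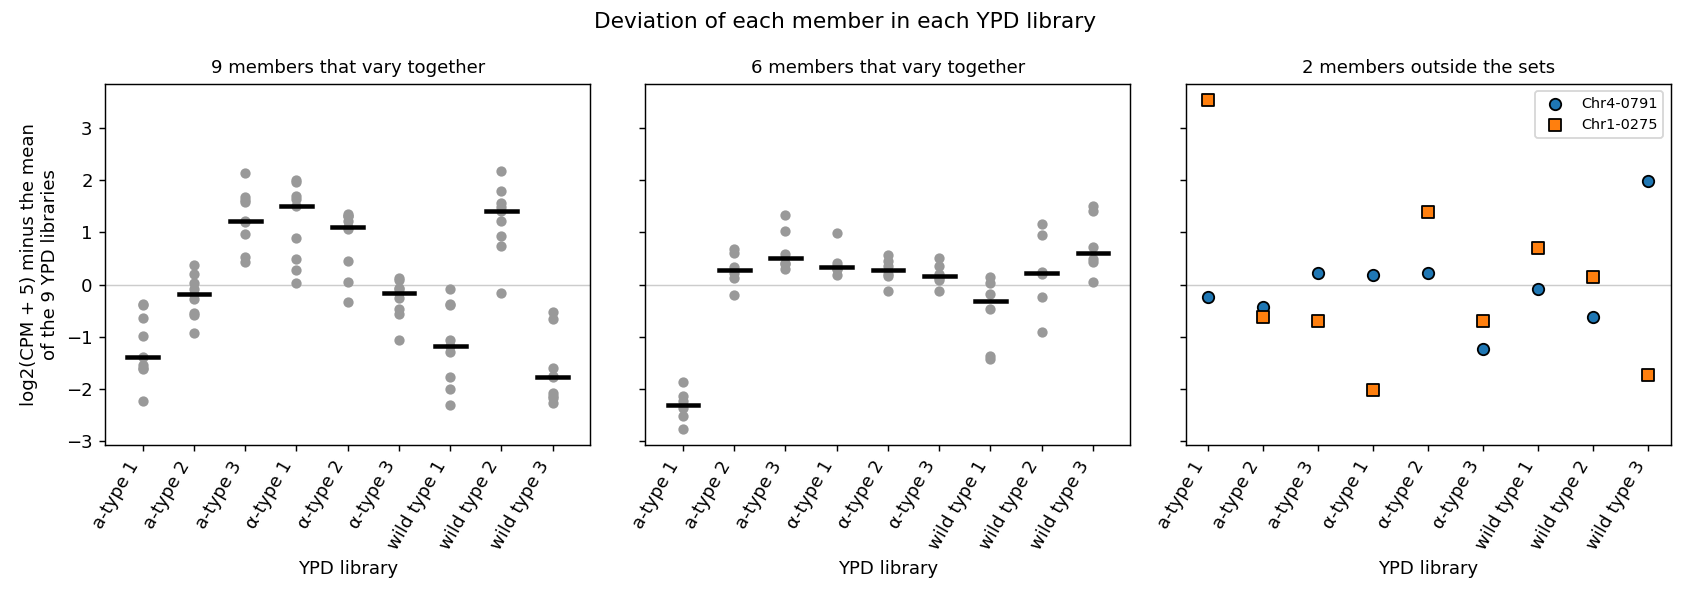
Deviation of each member from its own mean over the 9 YPD libraries, on a log2(CPM + 5) scale, for the set of 9, the set of 6 and the 2 features outside; points are features and bars are medians. The set of 9 has medians of 1.11 to 1.5 in 4 libraries and of -1.76 to -0.15 in the other 5, and the set of 6 departs mainly in a-type replicate 1, with a median of -2.30.

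The set of 6 was lowest in YPD a-type replicate 1 and next lowest in wild-type replicate 1. Its summed level was 212, 1455 and 1865 CPM in a-type replicates 1, 2 and 3, 1576, 1513 and 1378 CPM in the α-type replicates, and 893, 1724 and 2132 CPM in the wild-type replicates. In a-type replicate 1 all 6 members were at their lowest, with a median log2 deviation of -2.30, and in wild-type replicate 1 the median was -0.32 and 2 of 6 members were above their own mean. The median correlation over its 15 pairs was 0.775, but 0.212 without a-type replicate 1, with the lowest pair at -0.36 and 5 of 15 pairs over 0.5. The joint variation of this set therefore rests on that library.

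PP7435_Chr1-0656, with a coding length of 750, had the highest mean of the set. It had 42.4, 343 and 420 CPM in YPD a-type, 405, 467 and 335 CPM in α-type, and 279, 608 and 427 CPM in wild type. The low library held 12 counts and the highest 178, a plain ratio of 14.3 with a counting interval of 8.0 to 28.3. Apart from a-type replicate 1 the values of this feature lay within 279 to 608 CPM.

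The other 5 members of the set had the same lowest library. PP7435_Chr4-0343 (coding length 1848) ran from 49.5 CPM there to 567 CPM in wild-type replicate 2, with a median of 317 CPM over the 9 YPD libraries. PP7435_Chr2-0140 (coding length 1149) ran from 42.4 to 547 CPM with a median of 236 CPM, and PP7435_Chr1-1393 (coding length 1596) from 35.3 to 410 CPM with a median of 158 CPM, both highest in wild-type replicate 3. In that wild-type library the set of 6 had its highest sum and the set of 9 its lowest, while in a-type replicate 3 and α-type replicate 1 every member of both sets was above its own mean. PP7435_Chr1-0862 (coding length 1875) ran from 24.7 to 339 CPM with a median of 204 CPM, and PP7435_Chr1-3094 (coding length 1722) from 17.7 to 286 CPM with a median of 133 CPM, both highest in a-type replicate 3. Of the 1654 non-members, 57 (3.45%) had a correlation of at least 0.8 with the mean profile of this set and 46 (2.78%) had one of -0.8 or lower.

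Of the 2 features outside the sets, PP7435_Chr1-0275, with a coding length of 1422, had the largest ratio of all members, 46.6. It had 1007, 51.7 and 49.5 CPM in the YPD a-type libraries, 16.7, 224 and 48.9 CPM in α-type, and 138, 92.2 and 21.4 CPM in wild type. The value of 1007 CPM in a-type replicate 1 is 285 counts, the next highest was 224 CPM, and the plain ratio of the highest to the lowest was 60.2 with a counting interval of 25.5 to 187. Without that library the ratio on CPM + 5 was 10.5, still past the limit of 8, with the highest and the lowest value both in α-type. It was high in the library where the set of 6 was low, and its correlation with the mean profile of that set was -0.86. That correlation was not computed without a-type replicate 1, the library where this feature and the set of 6 both departed most.

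PP7435_Chr4-0791, with a coding length of 1806, stood high in wild-type replicate 3. It had 81.3, 71.1 and 113 CPM in YPD a-type, 110, 114 and 38.4 CPM in α-type, and 90.7, 61.5 and 397 CPM in wild type. The other 8 libraries of this feature stayed at or below 114 CPM, and without wild-type replicate 3 its ratio was 2.74. Its highest correlation with another member was 0.644.

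In the members as in the 1671 features, most of the spread among YPD libraries lay within strains. With 3 libraries in each of 3 strains, most spread falls within strains even where strains do not differ. Of the sum of squares of log2(CPM + 5) over the 9 YPD libraries, a median of 82.9% over the members was within strains, from 67.7% for PP7435_Chr2-0983 to 95.4% for PP7435_Chr1-3094, beside a median of 81.8% over the 1671 features. For no member did the 3 libraries of a strain all lie above or all below the other 6. The share of the 1671 features for which they did was not computed, so nothing is read from this. The YPD mean of PP7435_Chr2-0659 was 332 ± 399 CPM in a-type, 515 ± 314 CPM in α-type and 338 ± 447 CPM in wild type (SD, n = 3 each). Within a strain, the highest of the 3 YPD replicates was a median of 5.99 times the lowest in a-type, 2.39 times in α-type and 5.98 times in wild type, beside 1.80, 1.56 and 1.58 over the 1671 features. The rule used these YPD values, so wider ratios in the members are not a result.

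No member passed the threshold between strains in YPD. The test was edgeR's quasi-likelihood test over all 18 libraries, with Benjamini-Hochberg adjustment over the 4783 features with enough counts and a threshold of 0.05. All 17 members were tested. The share of all features called was 0.0627% for a-type against α-type, 0.418% for a-type against wild type and 0.0418% for α-type against wild type. At an unadjusted p under 0.05 there were 1, 6 and 3 members in these comparisons, beside 241, 540 and 406 of the 4783 features, and DESeq2 called 0 members in each. The median log2 fold change of the members was -0.45, -0.16 and 0.32 in the same order, beside 0.02, 0.01 and -0.02 over all features tested. The YPD libraries enter these comparisons and the rule alike, and the comparisons share libraries with each other.

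**Figure D4:**
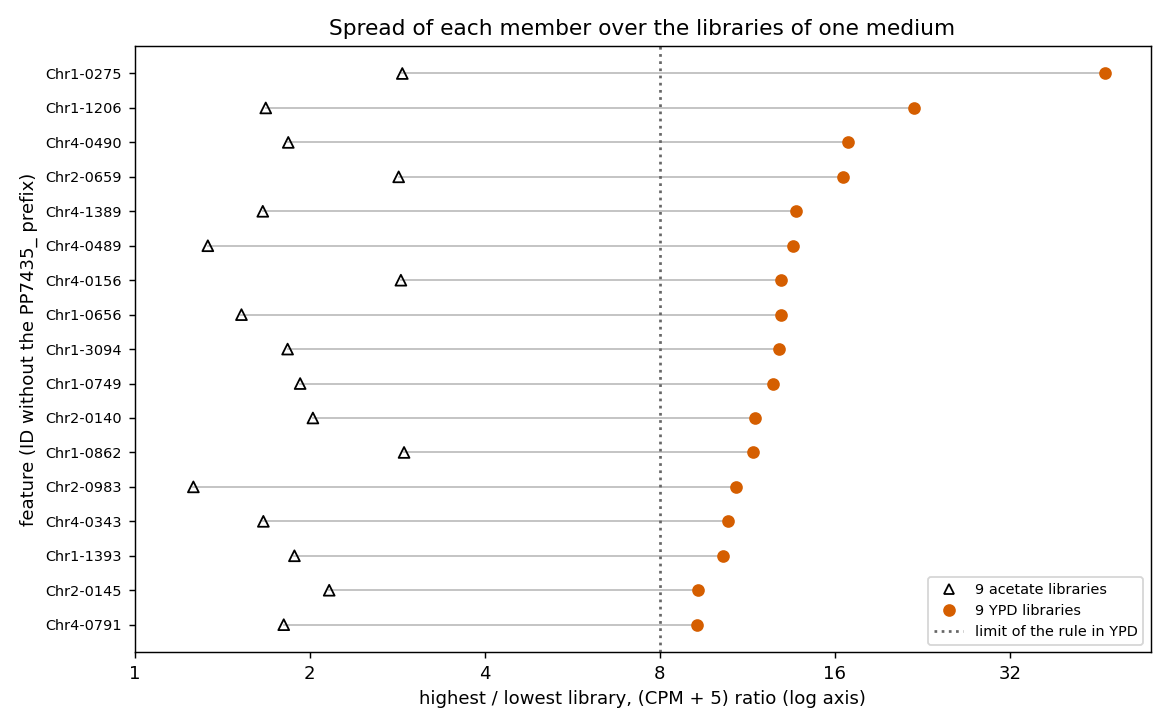
Ratio of the highest to the lowest library of each member (CPM + 5, log axis), over the 9 acetate libraries as open triangles and over the 9 YPD libraries as filled circles; the dotted line is the limit of 8 that the rule set in YPD. The acetate ratios run from 1.26 to 2.91 and the YPD ratios from 9.27 to 46.6.

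In acetate the same features varied little. Over the 9 acetate libraries the highest was 1.26 times the lowest for PP7435_Chr2-0983 and 2.91 times for PP7435_Chr1-0862, the extremes among the members. The rule limited the distance between the acetate group means but not the spread of replicates in a group. Among the 3 acetate replicates of a group, the highest was a median of 1.30 times the lowest over the 51 values of 17 members in 3 groups, beside 1.24 over the 1671 features, and beside 1.25 over the 1483 of these with acetate means in the range of the members. The ratio reached 2 in 4 of these 51 values, where 3.29% of the values of the 1671 features did, and the highest was 2.35. The same count in YPD was 43 of 51, where 29.7% did, and there the rule used the values. The acetate libraries were deeper, with a mean total 2.44 times that of the YPD libraries, and the part of depth in this difference was not tested. Over all features, the biological coefficient of variation, the spread between replicates beyond counting error, was 13.6%, 11.4% and 13.3% in acetate a-type, α-type and wild type and 39.3%, 31.9% and 35.0% in YPD.

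Most members had lower means in acetate than in YPD, a direction that the rule favored. The rule required a wide spread in YPD and set a floor on the YPD mean, but none on the acetate mean. Over all features past that floor, the median log2 fold change was also negative, at -0.34 in a-type, -0.38 in α-type and -0.34 in wild type. How many members were lower in acetate is therefore not read as a result. The summed level of the 17 members was 2521 to 2923 CPM in the acetate libraries and 1773 to 5397 CPM in the YPD libraries. The acetate mean was below the YPD mean in all 3 strains for 13 members, and above it in all 3 for 1, PP7435_Chr4-0489. That feature had 1040 ± 63.4, 1118 ± 155 and 1169 ± 88.0 CPM in acetate a-type, α-type and wild type, against 344 ± 309, 453 ± 301 and 254 ± 345 CPM in YPD (SD, n = 3 each). Its neighbor in the numbering, PP7435_Chr4-0490, had 67.4 ± 6.20, 71.9 ± 10.9 and 91.4 ± 21.2 CPM in acetate, against 213 ± 210, 305 ± 242 and 111 ± 115 CPM in YPD. The 2 features thus varied together across the YPD libraries, while in acetate the mean was higher than in YPD for one and lower for the other.

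The set of 9 showed where single YPD libraries stood relative to acetate. For PP7435_Chr2-0659 the acetate libraries ran from 63.3 to 189 CPM, and 4 YPD libraries lay above all of them, 1 below all of them and 4 among them. For PP7435_Chr1-1206 the acetate libraries ran from 39.9 to 70.4 CPM, with 4 YPD libraries above and 2 below. For PP7435_Chr2-0983 they ran from 130 to 165 CPM, with 6 YPD libraries below, a-type replicate 2 level with the highest acetate library, and 2 libraries far above. In the set of 6, PP7435_Chr1-0656 had acetate levels of 141 to 218 CPM, with 8 YPD libraries above all of them and a-type replicate 1 below. PP7435_Chr1-0275 had acetate levels of 69.0 to 208 CPM, with 2 YPD libraries above and 5 below.

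Between acetate and YPD, 1 member was higher and 3 were lower in acetate in a-type, where 39.5% of all features tested were called, 20.3% as higher and 19.2% as lower. In α-type 0 members were higher and 7 lower, where 41.9% were called, 22.3% as higher and 19.6% as lower. In wild type 2 members were higher and 5 lower, where 48.9% were called, 25.6% as higher and 23.3% as lower. The test was the same as between strains. The rule bounded these ratios, so nothing is read from the counts. The median log2 fold change of the members was -0.96 in a-type, -1.34 in α-type and -0.90 in wild type, beside -0.01, 0.04 and 0.03 over all features tested and -0.34, -0.38 and -0.34 over the 1671 features.

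The called members that were higher in acetate were PP7435_Chr4-0489, with log2 fold changes of 1.63 (SE 0.64) in a-type and 2.46 (SE 0.66) in wild type, and PP7435_Chr2-0983, with 1.16 (SE 0.46) in wild type. Among those that were lower, PP7435_Chr2-0145 had the largest changes in both heterothallic strains, at -1.91 (SE 0.61) in a-type and -2.38 (SE 0.58) in α-type. PP7435_Chr4-0490 came next, at -1.62 (SE 0.61) in a-type and -2.07 (SE 0.60) in α-type. In wild type the largest decreases were those of PP7435_Chr4-1389 at -1.97 (SE 0.60) and PP7435_Chr2-0659 at -1.79 (SE 0.74). The call on PP7435_Chr2-0145 in α-type and that on PP7435_Chr4-0489 in wild type held without each of the 6 compared libraries, the second with a value of 4.6 without YPD wild-type replicate 2. Without that library the wild-type values of PP7435_Chr4-1389 and PP7435_Chr2-0659 were -0.35 and 0.21, and neither passed. PP7435_Chr2-0659 also failed to pass without any one of the 3 acetate wild-type replicates, with DESeq2 and with RLE size factors. Among the runs with 1 library left out, PP7435_Chr2-0983 passed only without YPD wild-type replicate 2, with a value of 0.82 without YPD wild-type replicate 3. It passed with DESeq2, with RLE size factors and under the other alternatives that kept all the compared libraries. In α-type PP7435_Chr4-0490 was at -1.26 and did not pass without YPD α-type replicate 1. In a-type the 3 named calls were each lost without acetate replicate 2 or 3, and those on PP7435_Chr4-0489 and PP7435_Chr4-0490 also without acetate replicate 1. Without YPD a-type replicate 3 the a-type values were -1.0 for PP7435_Chr2-0145 and -0.42 for PP7435_Chr4-0490, neither of which passed, and 2.72 for PP7435_Chr4-0489, which passed. The call on PP7435_Chr4-0489 was also lost without YPD a-type replicate 1 or 2. With DESeq2 the a-type calls on PP7435_Chr4-0489 and PP7435_Chr4-0490 were lost as well.

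The counts of called members turned on single libraries. The a-type count of 4 was 11 without YPD a-type replicate 1, 2 without YPD replicate 2, 1 without YPD replicate 3, and 1, 0 and 1 without acetate replicates 1, 2 and 3. The α-type count of 7 was 4 without YPD α-type replicate 1, and the wild-type count of 7 was 4 without YPD wild-type replicate 3 or without any one of the acetate wild-type replicates. In α-type, all 3 acetate libraries lay below all 3 YPD libraries for 11 members (43.8% of the 1671 features). They did so for 1 member in a-type (38.3%) and 4 in wild type (48.5%). All 3 lay above for 1 member in a-type (19.9%), 1 in α-type (23%) and 2 in wild type (22%). The rule used the YPD values and bounded the ratios of acetate to YPD, so nothing is read from these counts.

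Coding lengths had a median of 1422 (quartiles 1026 and 1848), beside 1323 (quartiles 894 and 1938) for the 1671 features. Chromosome 1 held 7 members, chromosome 2 held 4, chromosome 3 held 0 and chromosome 4 held 6, where the shares of the 1671 features were 30.8%, 25.8%, 23.9% and 19.6%. Besides the consecutive pair on chromosome 4, the closest members were PP7435_Chr2-0140 and PP7435_Chr2-0145, which fell into different sets.

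In the authors' deposited tables of normalized counts for pairs of YPD groups, all 17 members were listed. The median plain ratio of the highest to the lowest of 6 libraries was 15.2 in the table of a-type with wild type, 7.83 in that of α-type with a-type and 11.6 in that of α-type with wild type, and the same libraries gave 14.3, 7.71 and 11.8 by CPM. The highest library was the same by both for 17, 17 and 16 members and the lowest for 17 in each table.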

How the data were processed

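The authors deposited a kallisto table for each of the 18 libraries with estimated counts, which need not be whole, and TPM values, which are scaled by effective length, per the file headers. Of 9 tables of the whole series, the 3 of YPD groups were used, which give a normalized signal for the 6 libraries of 2 groups as the authors deposited it. Per the submitters' processing notes, kallisto was among the tools used, along with Trim Galore 0.4.2, SAMtools, FastQC 0.11.2, DESeq2 and TopHat2. No source used here gives the genome build. Of the features, 99.9% had a length divisible by 3, so length is written as coding length.

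CPM is the estimated count divided by the sum of its library. For tests, estimated counts were rounded and fitted with edgeR 4.0.16 in R 4.3.3 (filterByExpr, TMM, 1 mean per group over 18 libraries, quasi-likelihood test, Benjamini-Hochberg adjustment over the 4783 features kept), after a check on simulated data. DESeq2 1.42.0 was an alternative. The other alternatives were RLE size factors, no count filter, the compared libraries alone, a replicate block and leaving out each library. For membership, the pseudocount, the scaling and the ratio limit were varied. Replicate numbers were taken as names. Values in every library are given for members picked by a rule on ratio, mean level, consecutive numbers, nearness to the limit and largest called changes, and the other 5 by ranges. The members, rule and lists were chosen with earlier results of these data known. Intervals and floors cover counting error only.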

Additional observations from a re-analysis of the deposited data

How the results depend on the processing

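The number of members was 17, 30 with TMM-adjusted library sizes, 36 with a ratio limit of 6, and 11 to 22 when each of the 18 libraries was left out in turn (5 without YPD a-type replicate 1 and wild-type replicate 3 together). The omission of these 2 libraries together and the repeats of the pair correlations were chosen after seeing the data. Members called between acetate and YPD numbered 4 in a-type, 2 with the replicate block and 2 with DESeq2, and 0 to 11 with a library left out. In α-type they numbered 7, 14 with the 6 compared libraries fitted alone, 8 with the replicate block and 4 to 9 with a library left out. In wild type they numbered 7, 5 with the replicate block and 4 to 10 with a library left out. Between strains in YPD, 0 members were called in each of the 3 comparisons, 0 with the replicate block and 0 under the other alternatives run. The numbers are not known to pair the libraries: the labels do not tie a number to a culture, and over the 1671 features the deviations of acetate and YPD libraries of the same strain and number correlated from -0.12 to 0.12, beside -0.16 to 0.13 for different numbers. With the block, the calls on PP7435_Chr1-3094 (-1.13) and PP7435_Chr4-0490 (-1.19) in a-type were lost. So were those on PP7435_Chr2-0140 (-0.90) and PP7435_Chr2-0659 (-0.94) in wild type. Not every library correlated best with its own number. The log2 fold change of PP7435_Chr2-0659 in wild type was -1.79, but 0.21 without YPD wild-type replicate 2, and -2.30 to 0.21 over the libraries left out. The median ratio among acetate replicates was 1.30, 1.31 with a pseudocount of 1, 1.31 with TMM-adjusted library sizes, 1.28 with TPM, and 1.14 to 1.19 with 1 replicate number left out, when 2 libraries remain in a group. The causes of these shifts were not tested, other than that 2 libraries give a smaller range than 3. Counts of 3 to 14 in the lowest YPD library limit the precision of each ratio.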
